A study of Homo sapiens with 192 samples.

Results

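Notch signalling genes were examined in HT29, LS174T, LS513 and HCT116, 4 human lines derived from colorectal cancers, as a flat 2D layer and in 3D growth. The set was given by name and holds 10 genes, taken by their Ensembl identifiers from the 58243 genes listed: the receptors NOTCH1, NOTCH2 and NOTCH3, the ligands DLL1, DLL4, JAG1 and JAG2, and the targets HES1, HES4 and HEY1. The rule that lists them uses no measured value, although the set was proposed with earlier results of these data known, and all 10 were among the 19387 genes with enough counts to be tested. Each of the 8 groups of line and growth held 3 libraries of polyA+ RNA, 24 in all, and none of the groups received a drug or a genetic change. The paper formed spheroids on low attachment plates for its growth assay, and does not say how the 3D cultures for RNA were made. HCT116 was kept in another medium than the other lines, so that medium and line cannot be told apart there. Each line is one established culture, and no source used here says that libraries of a group came from separate cultures, so the p-values measure the spread between these libraries.

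Notch receptors are membrane proteins that are activated by ligands of the Delta-like (DLL) and Jagged (JAG) families on a neighbouring cell. Pulling by the ligand-bearing cell exposes the receptor to ADAM proteases and then to the gamma-secretase complex, and the freed intracellular part enters the nucleus, joins the DNA-binding protein RBPJ and switches on genes of the HES and HEY families. In the intestinal epithelium, HES1 holds down ATOH1, the master factor of the secretory lineage, so that Notch activity favours absorptive over goblet and enteroendocrine cells. NOTCH1 and NOTCH2 are the receptors best known in the crypt, and DLL1 and DLL4 are the ligands of its secretory cells.

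RBPJ recognises a core that is written TGGGAA. The 250 bases before the RefSeq start (GRCh38.p14) were available for 8 of the 10 genes (not for HEY1 and DLL1), and this core, searched on both strands, lay in the windows of HES1 and HES4 and in none of the other 6. It was present in 20.8% of 35116 promoter windows of the same length, and the longer GTGGGAA, which contains it, in 5.4%. Both targets also held the longer form, at 85 bases upstream of the start in HES1 and at 77 in HES4. A match is a description of the letters and not of binding. The stretches from 250 to 61 bases upstream are printed 5′ to 3′ on the gene's strand, with the core in capitals, because HES1 and HES4 are known targets of RBPJ; HES1 lies at chr3:194135898-194136087 on the plus strand and HES4 at chr1:1000158-1000347 on the minus strand, where the GENCODE start of HES4 is placed 75 bases further upstream than the RefSeq start.
HES1: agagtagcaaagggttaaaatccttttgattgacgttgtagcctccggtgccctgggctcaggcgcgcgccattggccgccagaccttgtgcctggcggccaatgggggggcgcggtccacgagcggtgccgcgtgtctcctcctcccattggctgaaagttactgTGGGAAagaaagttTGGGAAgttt
HES4: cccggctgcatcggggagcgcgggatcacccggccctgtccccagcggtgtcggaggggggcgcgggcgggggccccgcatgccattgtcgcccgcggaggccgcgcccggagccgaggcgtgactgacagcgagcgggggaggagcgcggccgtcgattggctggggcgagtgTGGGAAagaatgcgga

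Levels are given in CPM, the counts of a gene relative to the library total after TMM scaling, and a gene is called where edgeR's quasi-likelihood test gave a Benjamini-Hochberg adjusted p under 0.05 over all 19387 genes. Library totals ran from 18723942 to 34277421 counts with a median of 30777613, and the lowest was HT29 2D replicate 3. A count of 3 in a library corresponded to 0.0875 to 0.1602 CPM, and values near it carry mainly counting error. Of 12 markers of colorectal epithelium, all 12 stood above 3 counts in every library of HT29, LS513 and LS174T. In HCT116, 9 did in 2D and 10 in 3D, and CDX1 and CDH17 had at most 3 counts in each of its libraries. CD3E had 0 counts throughout, and PTPRC had at most 2. The summed level of 5 leukocyte markers was between 2.33 and 91.8 CPM over the libraries and was higher in 3D in each line, with CD68, a lysosomal protein, as its main part (19.3 CPM in 2D and 78 CPM in 3D in LS513). The 5 endothelial markers summed to at most 3.19 CPM. The 5 fibroblast markers summed to at most 22.1 CPM, and were highest in HCT116 through COL1A1. In such bulk samples fewer cells of a type and less RNA per cell cannot be told apart.

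**Figure D1:**
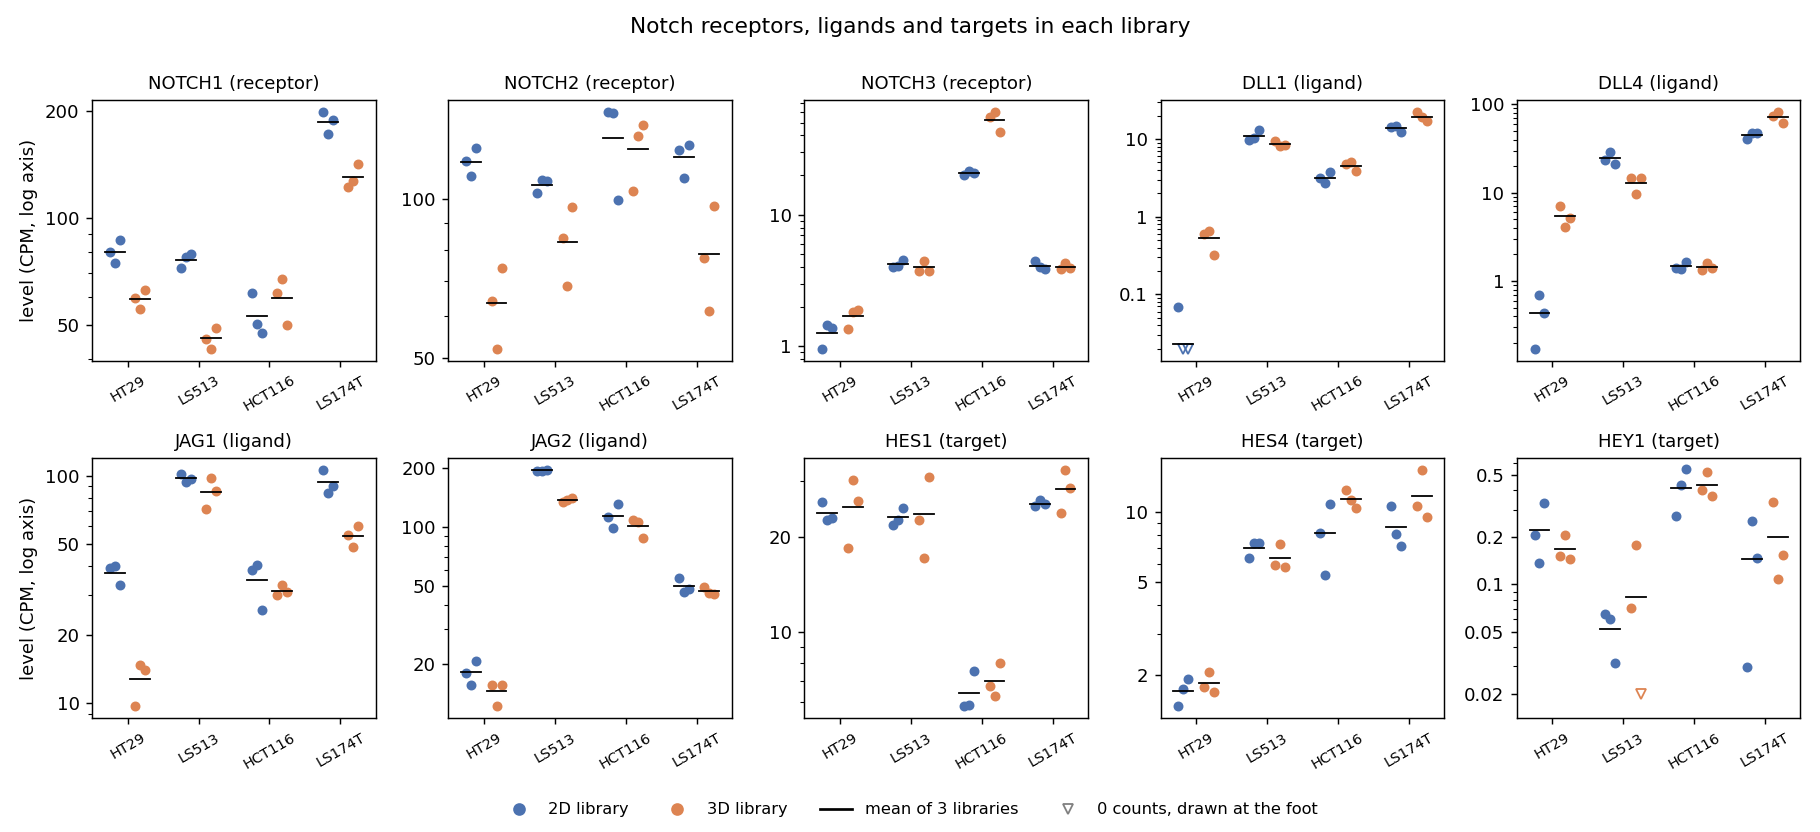
Level of each of the 10 genes in CPM on a log axis, in each of the 24 libraries by line, with 2D libraries in blue, 3D libraries in orange, the group mean as a line, and libraries with 0 counts as open triangles. NOTCH3 stood highest in HCT116, with 20.7 CPM in 2D and 52.4 CPM in 3D, while DLL1 and DLL4 were lowest in HT29 2D.

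In 3D growth, NOTCH1, NOTCH2 and JAG1 fell and DLL1 and DLL4 rose in both HT29 and LS174T. In HT29, DLL1 and DLL4 rose and NOTCH1, NOTCH2, JAG1 and JAG2 fell, so 2 of 10 genes rose against 21.1% of all tested genes and 4 fell against 19.6%. In LS513, NOTCH1, DLL4 and JAG2 fell (3 of 10, against 9.9% of all genes) and none rose by edgeR's test (against 13.7%; also 0 with DESeq2 and at an unadjusted p under 0.05). In HCT116, NOTCH3 and DLL1 rose (2 of 10, against 16.8%), and none fell (against 12.3%; also 0 with DESeq2 and at an unadjusted p under 0.05). In LS174T, DLL1 and DLL4 rose (2 of 10, against 13.1%), and NOTCH1, NOTCH2 and JAG1 fell (3 of 10, against 9.15%). The median log2 fold change of the 10 genes was -0.13 in HT29 (0.00 over all genes tested), -0.27 in LS513 (0.00), 0.09 in HCT116 (0.01) and 0.06 in LS174T (0.02).

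**Figure D2:**
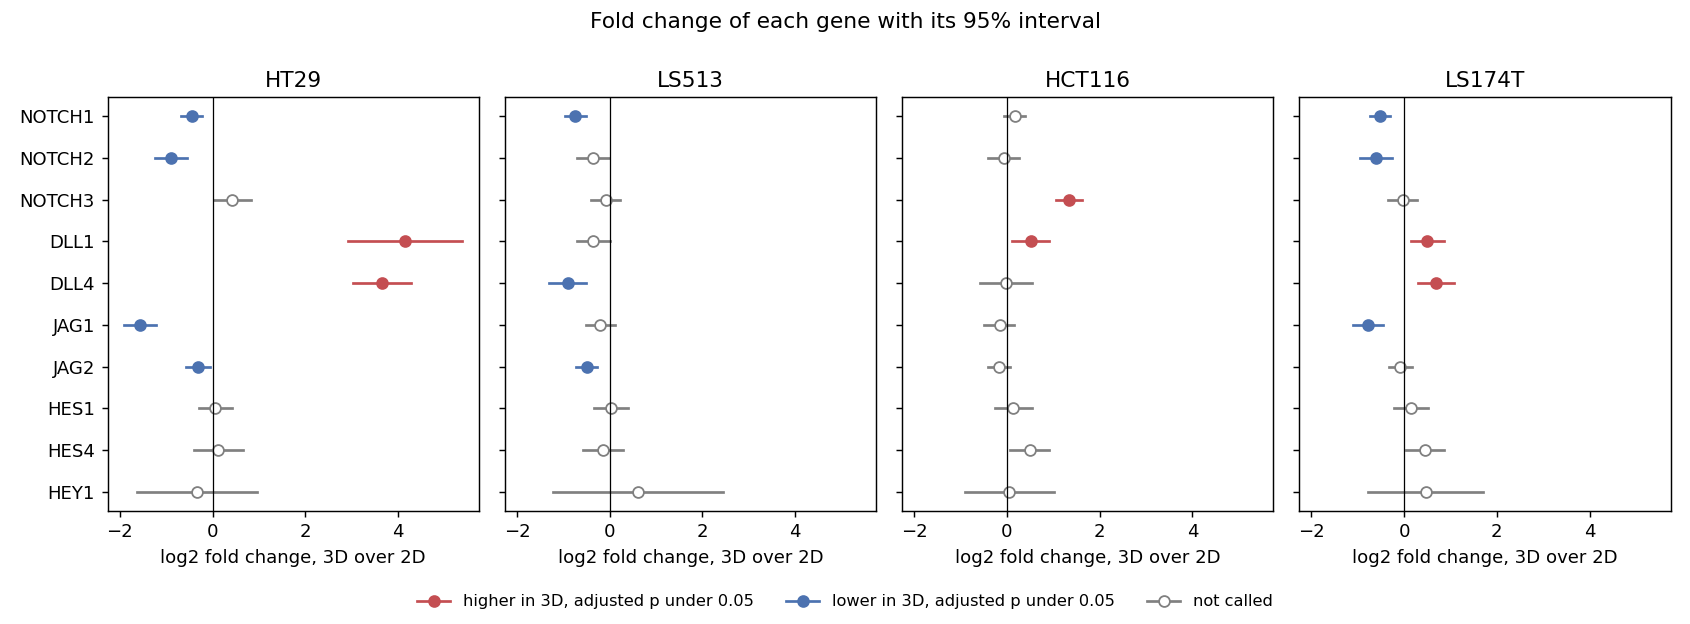
Log2 fold change of 3D over 2D for each gene (points) with its 95% interval (bars) in each line, filled red where higher and filled blue where lower at an adjusted p under 0.05. JAG1 lay at -1.56 in HT29 and -0.78 in LS174T, DLL4 at 3.65 in HT29 and -0.91 in LS513, and the targets HES1, HES4 and HEY1 have open points in all 4 lines.

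NOTCH1 (ENSG00000148400, GRCh38 chr9:136494433-136545786, minus strand; coordinates of genes are those of GENCODE), the receptor most often studied in the intestine, fell in 3 of the 4 lines. HT29 libraries held 80, 74.6 and 86.7 CPM in 2D and 59.4, 55.5 and 62.6 CPM in 3D. In LS513 the level was 72.2, 77.6 and 79.1 CPM in 2D against 45.6, 42.8 and 49 CPM in 3D. LS174T had the highest levels, 198.8, 172.8 and 188.3 CPM in 2D and 122.4, 127.0 and 141.6 CPM in 3D. In these lines every 3D library lay below every 2D library, and the log2 fold changes were -0.44 ± 0.11 (SE, adjusted p = 0.0025), -0.74 ± 0.11 (adjusted p = 3.1e-05) and -0.52 ± 0.11 (adjusted p = 0.0017). HCT116 libraries overlapped, at 61.3, 50.2 and 47.5 CPM in 2D and 61.5, 67.4 and 49.9 CPM in 3D, for a log2 fold change of 0.17 (95% interval -0.06 to 0.39, adjusted p = 0.26). LS174T stood above the next line in both growths, by 1.21 on the log2 scale over HT29 in 2D and by 1.13 over HCT116 in 3D. HT29 and LS513 were not called different in 2D (adjusted p = 0.58), nor HCT116 and HT29 in 3D (adjusted p = 0.96).

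NOTCH2 (ENSG00000134250, chr1:119911553-120069626, minus strand) had means of 106.6 to 130.7 CPM in the 4 lines in 2D and fell in HT29 and LS174T. In HT29 it went from 118.0, 110.5 and 125.2 CPM to 64.2, 52 and 74.1 CPM, with no overlap (log2 fold change -0.89 ± 0.17, adjusted p = 1.9e-04). In LS174T, 2D libraries held 123.9, 109.8 and 126.7 CPM and 3D libraries 77.4, 61.3 and 97.3 CPM, again without overlap (-0.61 ± 0.16, adjusted p = 0.011), but without 3D replicate 2 the fold change was -0.45 and no longer called (adjusted p = 0.097), and with the 6 libraries of the line alone it was -0.62 (adjusted p = 0.059). The 3D libraries of LS513 (84.3, 68.3 and 96.7 CPM) also lay below its 2D libraries (102.8, 108.8 and 108.3 CPM), with a log2 fold change of -0.36 (95% interval -0.70 to -0.02, adjusted p = 0.12) that was called with no filter on low counts (-0.37, adjusted p = 0.021) and with the 6 libraries of the line alone (-0.37, adjusted p = 0.032). In HCT116 the mean was 130.7 ± 26.8 CPM (SD, n = 3) in 2D and 124.6 ± 18.4 CPM in 3D, and the libraries overlapped. No pair of neighbouring lines was called different in 2D, and in 3D HCT116 was above LS513 (adjusted p = 0.0031). The partial copy NOTCH2NLA, near-identical to the start of NOTCH2, held mean levels of 0.116 to 0.49 CPM, and since reads that map more than once were left out, reads from the shared stretch may be missing from NOTCH2.

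NOTCH3 (ENSG00000074181, chr19:15159038-15200981, minus strand), a receptor best known from vascular smooth muscle, was the one of the 3 receptors of the set that rose, in HCT116. There it went from 20, 21.5 and 20.7 CPM in 2D to 54.8, 60.2 and 42.3 CPM in 3D, a 2.53-fold rise (log2 fold change 1.34 ± 0.13, adjusted p = 1.2e-07). The lowest 3D library was above the highest 2D library. HCT116 also had the highest level in both growths, above LS513 in 2D by 2.29 and above LS174T in 3D by 3.70 on the log2 scale. LS513 (4.22 ± 0.272 CPM in 2D, 3.98 ± 0.427 in 3D; SD, n = 3) and LS174T (4.12 ± 0.33 and 4.03 ± 0.205) were not called different from each other in either growth (adjusted p = 0.87 and 0.95). HT29 was lowest, with 0.96, 1.45 and 1.37 CPM in 2D and 1.36, 1.83 and 1.89 CPM in 3D, groups that overlapped. Its log2 fold change of 0.43 (95% interval 0.03 to 0.83) missed the threshold (adjusted p = 0.077), which it passed without 2D replicate 2 (0.60, adjusted p = 0.039) or without 3D replicate 1 (0.60, adjusted p = 0.023).

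DLL1 (ENSG00000198719, chr6:170282206-170306565, minus strand), a ligand of crypt secretory cells, was almost undetected in HT29 grown in 2D. The counts there were 2, 0 and 0, against 20, 19 and 9 in 3D. The summed 2 and 48 counts give a ratio of 20.5, scaled for library size, with an exact 95% interval of 5.37 to 173.9 that covers counting error alone. All 2D counts came from replicate 1, so the fitted log2 fold change depends on that library, from 3.58 to 7.09 with single libraries left out (7.09 without replicate 1, where the remaining 2D libraries had 0 counts), and it was called each time. Every 3D library was above every 2D library (adjusted p = 1.1e-05). In LS174T the level was 14.2, 14.7 and 12.4 CPM in 2D and 22.3, 19.1 and 17.3 CPM in 3D (log2 fold change 0.50 ± 0.17, adjusted p = 0.036), and in HCT116 3.14, 2.73 and 3.72 CPM against 4.82, 5.03 and 3.84 CPM (0.52 ± 0.19, adjusted p = 0.044). Neither pair of groups overlapped. In LS174T the call was lost with any one library left out except 3D replicate 3 (adjusted p from 0.065 to 0.15 where lost), and in HCT116 without 2D replicate 1 or 2 or 3D replicate 1 or 2 (adjusted p from 0.12 to 0.19). LS513 went the other way, from 9.69, 10.4 and 13 CPM to 9.51, 8.1 and 8.42 CPM, and its log2 fold change of -0.35 was not called (95% interval -0.71 to 0.01, adjusted p = 0.16). In 2D LS174T and LS513 were not called different (adjusted p = 0.12), and in 3D each line was called different from the next, in the order LS174T, LS513, HCT116 and HT29.

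DLL4 (ENSG00000128917, chr15:40929333-40939073, plus strand), the other crypt ligand and a regulator of vessel sprouting, changed in opposite directions between lines. HT29 rose from 0.171, 0.688 and 0.438 CPM, which are 5, 20 and 8 counts, to 7.09, 4.11 and 5.19 CPM, which are 235, 119 and 143 counts. No library overlapped, and the level was 12.6-fold higher in 3D (log2 fold change 3.65 ± 0.30, adjusted p = 7.3e-09). Without 2D replicate 2, the highest 2D library, the log2 fold change was 4.32, and it was called with any one library left out. LS174T, the line with the highest level, went from 40.3, 46.8 and 47.1 CPM to 74, 81.7 and 61.6 CPM (0.69 ± 0.18, adjusted p = 0.01; 0.62 and adjusted p = 0.054 without 2D replicate 1). In LS513 it fell from 23.7, 28.6 and 20.9 CPM to 14.5, 9.77 and 14.7 CPM, with every 3D library below every 2D library (-0.91 ± 0.19, adjusted p = 0.0013). HCT116 held 1.39, 1.38 and 1.64 CPM in 2D and 1.33, 1.6 and 1.4 CPM in 3D, overlapping groups (-0.02, 95% interval -0.58 to 0.54, adjusted p = 1). All neighbouring lines were called different in both growths. HT29 was below HCT116 in 2D (adjusted p = 1.0e-04) and above it in 3D (adjusted p = 1.9e-07).

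JAG1 (ENSG00000101384, chr20:10637684-10673999, minus strand), a Jagged ligand, fell in the same lines in which DLL4 rose. HT29 went from 39.5, 40.1 and 33.1 CPM in 2D to 9.68, 14.7 and 14 CPM in 3D, 2.94-fold lower (log2 fold change -1.56 ± 0.16, adjusted p = 2.0e-07). In LS174T it went from 106.6, 84.4 and 90.4 CPM to 54.8, 48.8 and 60.2 CPM, 1.72-fold lower (-0.78 ± 0.16, adjusted p = 0.0011). No libraries overlapped in either line. LS513 held 102.4, 93.7 and 97.5 CPM in 2D and 71.4, 97.9 and 86.1 CPM in 3D, which overlapped (-0.20, 95% interval -0.52 to 0.12, adjusted p = 0.39), as did HCT116 with 38.7, 40.4 and 25.8 CPM against 29.8, 33 and 30.9 CPM (-0.16, 95% interval -0.49 to 0.16, adjusted p = 0.47). LS513 and LS174T led in 2D and were not called different there (adjusted p = 0.77), and LS513 alone led in 3D (adjusted p = 0.001 against LS174T). An antisense gene, AL050403.2, shares 79 exonic bases with JAG1 on the opposite strand and had at most 12 counts in a library.

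JAG2 (ENSG00000184916, chr14:105140981-105168824, minus strand), the other Jagged ligand, fell in LS513 without overlap. That line held the highest level, 193.4, 193.4 and 195.2 CPM in 2D and 134.2, 136.4 and 140.7 CPM in 3D (log2 fold change -0.50 ± 0.11, adjusted p = 0.0023). The spread within each group was smaller than the gap between them. In HT29 the groups overlapped, with 17.9, 15.6 and 20.7 CPM in 2D and 15.6, 12.1 and 15.6 CPM in 3D. Its fall of 0.31 on the log2 scale was called (adjusted p = 0.043) but was lost with RLE size factors (adjusted p = 0.077), with DESeq2 (adjusted p = 0.073), with no filter on low counts (adjusted p = 0.15) and with any one library left out except 2D replicate 2 (adjusted p from 0.057 to 0.36). HCT116 (113.3 ± 16 CPM in 2D, 100.7 ± 11.2 in 3D; SD, n = 3) and LS174T (49.7 ± 4.15 and 47 ± 2.12) were not called, with 95% intervals of -0.40 to 0.06 and -0.32 to 0.16. The order LS513, HCT116, LS174T and HT29 held in both growths, with all neighbours called different. A non-coding transcript, AL512356.1, shares 469 exonic bases, 7.33% of the exons of JAG2, on the same strand and had up to 729 counts, so some JAG2 reads may have been left uncounted as ambiguous.

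The 3 targets were not called in any line by edgeR's test or by DESeq2. HES1 (ENSG00000114315, chr3:194136145-194138732, plus strand), the repressor that carries much of the Notch response in the intestine and the one with a pair of RBPJ cores in the stretch printed above, had 25.8, 22.7 and 22.9 CPM in HT29 2D against 18.5, 30.3 and 25.9 CPM in 3D. In LS513 it was at 21.8, 22.7 and 24.6 CPM in 2D and 22.6, 17.2 and 31 CPM in 3D. LS174T held 25, 26.1 and 25.4 CPM against 23.8, 32.6 and 28.6 CPM, and HCT116 held 5.83, 5.9 and 7.54 CPM against 6.78, 6.31 and 8.02 CPM. The libraries of the growths overlapped in all 4 lines. The log2 fold change had 95% intervals of -0.30 to 0.43 (HT29), -0.33 to 0.40 (LS513), -0.26 to 0.53 (HCT116) and -0.21 to 0.51 (LS174T). With 3 libraries per group, changes within these intervals are not excluded. In LS513 the estimate went from 0.03 to -0.21 without 3D replicate 3. The lines differed more than the growths. HES1 in HCT116 was below LS513 by 1.85 on the log2 scale in 2D (adjusted p = 5.9e-09) and by 1.75 in 3D (adjusted p = 1.5e-08). HT29, LS513 and LS174T were not called different from each other in either growth.

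HES4 (ENSG00000188290, chr1:998962-1000172, minus strand), a HES family repressor, was low in HT29, with 1.47, 1.75 and 1.92 CPM in 2D and 1.78, 2.07 and 1.7 CPM in 3D. In LS513 it stood at 6.34, 7.37 and 7.38 CPM and 5.92, 7.32 and 5.82 CPM. HCT116 had 8.15, 5.38 and 10.8 CPM in 2D and 12.4, 11.3 and 10.4 CPM in 3D, with a log2 fold change of 0.49 (95% interval 0.07 to 0.90, adjusted p = 0.076). This was called without 2D replicate 3, the highest 2D library (0.72, adjusted p = 0.011). LS174T had 10.6, 8.1 and 7.17 CPM against 10.6, 15.2 and 9.49 CPM (0.45, 95% interval 0.03 to 0.87, adjusted p = 0.11), and was called without 3D replicate 3 (0.58, adjusted p = 0.043). HT29 was below the next line, LS513, in 2D (adjusted p = 7.1e-08) and in 3D (adjusted p = 4.3e-07). HEY1 (ENSG00000164683, chr8:79764010-79767863, minus strand), a target linked to vessel development, was close to the counting floor. It had 0 to 17 counts per library, with more than 3 in 17 of the 24 libraries. The highest means were those of HCT116, 0.416 CPM in 2D and 0.43 CPM in 3D, and in LS513 there were 2, 2 and 1 counts in 2D and 2, 5 and 0 in 3D. No neighbouring lines were called different in HEY1. Of pairs further apart, LS513 was below HCT116 in 2D (-2.90 on the log2 scale, adjusted p = 4.3e-04) and in 3D (-2.33, adjusted p = 0.002). Also called were HT29 and LS513 (adjusted p = 0.03) and HCT116 and LS174T (0.018) in 2D, and HT29 and HCT116 (0.032) in 3D. All of these rest on few counts, and a change with growth was not detectable at this depth.

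Whether the effect of 3D growth differed between the lines was asked with an F test over the 4 lines. It was called for 5 of the 10 genes, against 17.1% of all genes tested: DLL4 (adjusted p = 6.9e-08), NOTCH3 (adjusted p = 3.1e-05), DLL1 (adjusted p = 9.0e-05), JAG1 (adjusted p = 2.0e-04) and NOTCH1 (adjusted p = 9.3e-04). NOTCH2 lay just past the threshold (adjusted p = 0.062), and it was called with DESeq2 (adjusted p = 0.039) and without LS174T 3D replicate 3 (adjusted p = 0.022). JAG2 (adjusted p = 0.22), HES4 (0.32), HEY1 (0.87) and HES1 (1) were not called. Between pairs of lines, the difference of the 3D effect was called for 3 of 10 genes for HT29 and LS513 (against 12.1% of all genes), 6 for HT29 and HCT116 (7.76%), 3 for HT29 and LS174T (6.65%), 2 for LS513 and HCT116 (4.34%), 1 for LS513 and LS174T (3.62%) and 2 for HCT116 and LS174T (4.75%). The 6 genes of HT29 and HCT116 were all the receptors and DLL1, DLL4 and JAG1. For NOTCH3 the log2 fold change of HCT116 differed from each of the other lines, with differences of -0.91 for HT29 minus HCT116 (adjusted p = 0.016), -1.42 for LS513 minus HCT116 (adjusted p = 9.7e-05) and 1.37 for HCT116 minus LS174T (adjusted p = 1.0e-04). JAG1 fell more in HT29 than in LS174T, by a difference of -0.78 (95% interval -1.24 to -0.31, adjusted p = 0.037). DLL4 was the single gene called between LS513 and LS174T, with a difference of -1.60 (adjusted p = 6.3e-04).

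Levels differed between the lines for 10 of the 10 genes by a joint F test, against 95.7% of all genes, so that the count is close to the background. In 2D, HT29 and LS513 differed in 7 of 10 genes (60.6% of all genes), HT29 and HCT116 in 7 (68.8%), HT29 and LS174T in 7 (64.6%), LS513 and HCT116 in 8 (68.3%), LS513 and LS174T in 3 (57.6%), and HCT116 and LS174T in 8 (68.3%). The corresponding counts in 3D were 8 (61.9%), 9 (68.5%), 7 (65.5%), 10 (68.5%), 6 (60.9%) and 8 (67.2%). These counts were near the background share for most pairs; the lower count for LS513 and LS174T in 2D was not tested against it, and the comparisons share libraries.

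Levels of different genes were compared per kilobase of exon, as shares of the summed level of the 3 receptors or of the 4 ligands. In LS174T the receptor transcripts were mostly NOTCH1, 70.3 ± 0.715% (SD, n = 3) in 2D and 71.3 ± 3.24% in 3D. In HT29 NOTCH1 made up 52 ± 0.352% in 2D and 59.2 ± 2.61% in 3D, with NOTCH2 as nearly all of the rest. NOTCH3 was 14.8 ± 2.33% of receptor transcripts in HCT116 2D and 29.7 ± 3.58% in 3D, and at most 4.41% in the groups of the other lines. The order of NOTCH1 and NOTCH2 depends on length: with the longest transcript in place of all exons, NOTCH1 was 45.1% and NOTCH2 54.1% in HT29 2D, and NOTCH1 was 45.4% and NOTCH2 51.9% in LS513 2D.

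The ligand make-up shifted from Jagged to Delta-like transcripts in HT29 and LS174T. In HT29, JAG1 went from 58.1 ± 5.63% to 28.1 ± 7.39% and DLL4 from 1.31 ± 0.795% to 23 ± 5.16%, while the summed ligand level went from 6.96 ± 0.123 to 4.95 ± 0.352 CPM per kilobase. In LS174T, JAG1 went from 31.9 ± 2.74% to 17.1 ± 2.85% and DLL4 from 29.9 ± 3.58% to 44 ± 3.93%, at summed levels of 31.5 ± 1.15 and 34.5 ± 2.28 CPM per kilobase. JAG2 was the largest share in LS513 (61.4 ± 0.359% in 2D and 59.5 ± 0.984% in 3D) and in HCT116 (77.5 ± 4.62% and 75.5 ± 1.65%). It was also the largest in HT29 3D, at 45.5 ± 3.31% against 40.5 ± 5.88% in 2D. The shares describe the libraries and were not tested.

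**Figure D3:**
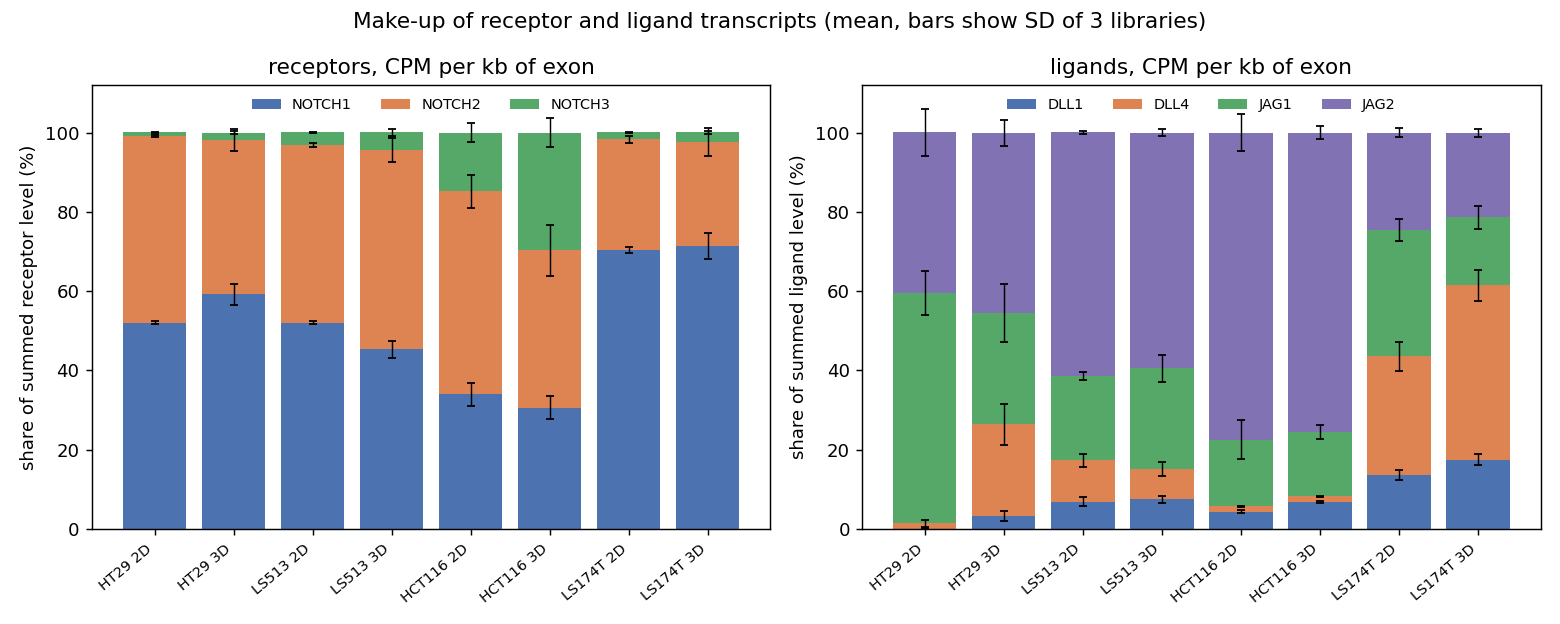
Mean share of each gene in the summed CPM per kilobase of exon of the 3 receptors (left) and 4 ligands (right), in percent, by line and growth, with bars for the SD of 3 libraries drawn at the top of each segment. The NOTCH3 segment is widest in HCT116 (14.8% in 2D and 29.7% in 3D), and the JAG1 segment of HT29 shrank from 58.1% to 28.1% as DLL4 went from 1.31% to 23%.

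Other genes of the pathway were taken as a list of 59, of which 55 were tested. HT29 had 20 that rose (21.1% of all genes rose) and 12 that fell (19.6%), and LS513 had 11 (13.7%) and 3 (9.9%). HCT116 had 9 (16.8%) and 3 (12.3%), and LS174T had 9 (13.1%) and 5 (9.15%). Both counts of HCT116, and the falls in LS513 and LS174T, were no higher than the shares over all genes. Among the 8 genes of receptor cleavage, the ADAM proteases and the parts of gamma-secretase, 5 rose and 2 fell in HT29 (21.1% and 19.6% of all genes), 4 rose in LS513 (13.7%), 5 rose in HCT116 (16.8%) and 0 were called in LS174T (13.1% rose) by edgeR's test; in LS174T 2 rose at an unadjusted p under 0.05, and 0 with DESeq2. The median log2 fold change of these 8 genes was 0.48, 0.24, 0.34 and 0.12 in that order of lines. The 2 that fell in HT29 were the proteases ADAM10 (log2 fold change -0.41 ± 0.15, SE, adjusted p = 0.028) and ADAM17 (-0.33 ± 0.10, adjusted p = 0.014). APH1A, NCSTN and PSENEN, subunits of gamma-secretase, rose in HT29, LS513 and HCT116. PSENEN went from 77.1 ± 6.41 CPM (SD, n = 3) to 124.1 ± 7.34 CPM in HT29, from 33.1 ± 0.211 to 48.1 ± 8.49 CPM in LS513 and from 35.4 ± 7.3 to 49.8 ± 1.76 CPM in HCT116. For APH1A, the log2 fold changes in these lines were 0.57 ± 0.09 (SE), 0.35 ± 0.09 and 0.40 ± 0.09. The protein O-glucosyltransferase POGLUT1, which modifies Notch receptors, was called lower in HT29 (-0.41 ± 0.11), LS513 (-0.53 ± 0.11) and LS174T (-0.39 ± 0.12).

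RBPJ itself had 70.8 ± 7.29 CPM in 2D and 41.6 ± 5.73 CPM in 3D in HT29, a called fall (log2 fold change -0.77 ± 0.21, adjusted p = 0.0063), and was not called in the other lines (-0.30, -0.31 and -0.22). The corepressor CIR1 rose in HT29 (0.56 ± 0.13), HCT116 (0.85 ± 0.13) and LS174T (0.60 ± 0.13). The coactivator MAML3 was the called gene of the list with the largest change in HCT116, from 2.59 ± 0.29 to 6.02 ± 1.07 CPM (1.21 ± 0.20, adjusted p = 1.1e-04). NEURL1, a ubiquitin ligase that acts on ligands, held that place in HT29, with 0.199 ± 0.156 CPM in 2D and 6.5 ± 1.44 CPM in 3D (adjusted p = 1.9e-09), and it also rose in LS174T (3.67 ± 1 to 17.8 ± 2.61 CPM, adjusted p = 1.0e-06). In LS513 the largest fitted change was that of DLK2, a non-canonical ligand, which had 0 counts in 2D and at most 3 in a 3D library, too few for a fold change. NOTCH4 was at or below 3.19 CPM on average in every group and was called higher in HT29 (0.455 ± 0.0232 to 0.817 ± 0.0743 CPM, adjusted p = 0.035) and lower in LS513 (0.323 ± 0.0304 to 0.141 ± 0.0719 CPM, adjusted p = 0.044), at no more than 11 counts in an LS513 library; the latter was lost with DESeq2 (adjusted p = 0.076). The ligand DLL3 was above 1 CPM in LS174T alone among the lines (4.29 ± 0.296 CPM in 2D and 6.44 ± 3.45 in 3D). It was not called in any line by edgeR's test, while DESeq2 called it higher in HT29 (adjusted p = 0.034), where it had 0 counts in 2D and at most 8 in a 3D library.

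HES1 is known to hold down factors of the secretory lineage, directly or through ATOH1. Of ATOH1, NEUROG3, SPDEF and GFI1, 3 rose in HT29 (all but SPDEF; 21.1% of all genes rose), 4 in LS174T (13.1%), 1 in LS513 (SPDEF; 13.7%) and 0 in HCT116 (16.8%) by edgeR's test (also 0 in HCT116 at an unadjusted p under 0.05 and with DESeq2), and 0 fell (1, ATOH1 in LS513, at an unadjusted p under 0.05, and 0 with DESeq2). ATOH1 in HT29 had 0.309 ± 0.0603 CPM in 2D and 5.73 ± 0.959 CPM in 3D (log2 fold change 4.18 ± 0.28, adjusted p = 3.7e-10) and from 4.36 ± 1.12 to 13.5 ± 1.88 CPM in LS174T (1.63 ± 0.19, adjusted p = 2.5e-06). In LS513 it stood at 10.1 ± 1.97 CPM in 2D and 7.3 ± 1.18 CPM in 3D, which was not called (adjusted p = 0.074), and in HCT116 it had at most 6 counts in a library. SPDEF, a goblet cell factor, rose in LS174T from 2.45 ± 0.951 to 16.9 ± 4.16 CPM, the largest called change of the list there (2.78 ± 0.24, adjusted p = 2.5e-08), and in LS513 from 20 ± 3.79 to 44.2 ± 7.12 CPM (1.15 ± 0.21, adjusted p = 2.7e-04). NEUROG3, the enteroendocrine factor, went from 0.103 ± 0.103 to 3.46 ± 1.6 CPM in HT29 (adjusted p = 6.9e-06) and from 1.3 ± 0.558 to 3.58 ± 0.443 CPM in LS174T (adjusted p = 0.02). The repressor GFI1 rose in HT29 (1.52 ± 0.31) and in LS174T (1.76 ± 0.25). HES1, as given above, was not called in these lines.

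Of 10 further targets and family members tested, 3 rose and 2 fell in HT29 (21.1% and 19.6% of all genes). In LS513 1 rose (13.7%), and in HCT116 1 rose and 1 fell (16.8% and 12.3%). In LS174T 3 rose (13.1%). The counts of HT29, LS513 and HCT116 were near these shares, and no count was tested against them. HES2 was called higher in HT29, LS513 and HCT116, with 2.42 ± 0.281 CPM in 2D and 3.78 ± 0.154 CPM in 3D in LS513 and 7.28 ± 1.03 against 11.9 ± 1.02 CPM in HCT116. Its highest count in an HT29 library was 13. The other called genes of this group are named after their values were seen. NRARP, a feedback inhibitor that Notch induces, rose in LS174T (25 ± 2.14 to 33.7 ± 2.49 CPM, adjusted p = 0.0086) and fell in HCT116 (4.56 ± 0.76 to 3.34 ± 0.301 CPM, adjusted p = 0.012). HES6, which opposes HES1, rose in HT29 from 3.62 ± 0.613 to 29.5 ± 1.76 CPM (3.04 ± 0.25, adjusted p = 8.0e-09), as did HEYL, at no more than 13 counts in a library and with overlapping libraries. The cell cycle gene CCND1 (-1.15 ± 0.13) and HES7 (-1.65 ± 0.36) fell in HT29. In LS174T the stem cell marker OLFM4 (1.95 ± 0.45, adjusted p = 0.0086) and the transcription factor MYC (0.68 ± 0.13) rose by edgeR's test. The OLFM4 call was lost with DESeq2 (adjusted p = 0.14).

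**Figure D4:**
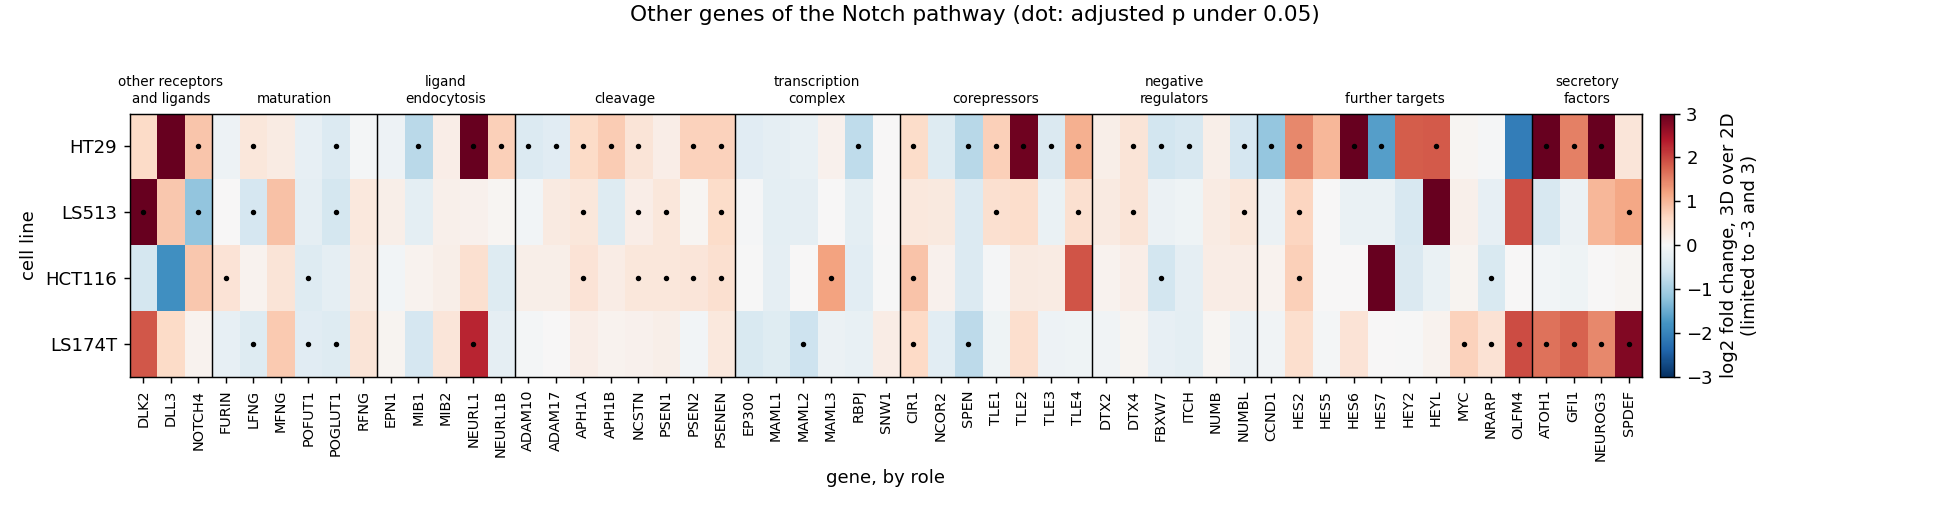
Log2 fold change of 3D over 2D for the 55 other tested genes of the pathway, ordered by role in columns and by line in rows, with red for higher and blue for lower in 3D, limited to -3 and 3, and a dot where the adjusted p was under 0.05. Of the 8 cleavage genes, 5 rose and 2 fell in HT29, while 5 rose in HCT116, 4 in LS513 and none in LS174T. Of the 4 secretory factors 3 rose in HT29 and 4 in LS174T. Deep colours with no dot mark genes with few counts.

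The genes whose log2 CPM followed each member most closely over the 24 libraries were taken by Pearson's r, which here mainly reflects the 4 lines, since libraries of a line share its background. For DLL4 these were the imprinted non-coding RNA H19 (r = 0.985, n = 24 libraries, 0.11 to 1123.3 CPM) and MIR675 (r = 0.966), whose sequence lies within H19. DLL1 was followed by TMEM171 (r = 0.978) and INPP5J (r = 0.974), JAG1 by MOCOS (r = 0.952) and SBF1 (r = 0.947), and JAG2 by CNOT10 (r = 0.985) and ADGRE2 (r = 0.977). Among receptors, NOTCH1 was closest to ZNF736 (r = 0.938) and ZNF141 (r = 0.932), NOTCH2 to GPATCH2L (r = 0.934) and MED1 (r = 0.918), and NOTCH3 to EPOR (r = 0.97) and NOD2 (r = 0.968). Of the targets, HES1 was closest to NNT-AS1 (r = 0.97) and CBR1 (r = 0.97), HES4 to NQO2 (r = 0.977) and HEBP1 (r = 0.976), and the sparse HEY1 to ODAD1 (r = 0.855) and PLAC8L1 (r = 0.832).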

How the data were processed

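PolyA+ RNA of 24 libraries was sequenced, each in 8 technical replicates, of which all were used except 1 of HT29 3D replicate 4, which was not analysed here (7 used). Per the labels and the study's methods, the authors demultiplexed with bcl2fastq 2.18.0.12, trimmed with Trim Galore 0.4.1, aligned with STAR, removed reads that mapped more than once and counted reads per Ensembl gene with HTSeq 0.5.3; the strand setting is not given in the sources used here. The deposited values are raw counts. Technical replicates differed by about the sampling noise and were summed to 1 library. The median over genes of the chi-square per degree of freedom was 0.906 to 0.933 by library. Symbols and GRCh38 coordinates came from GENCODE, since the study's methods name an Ensembl release of that build; the labels list hg19.

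Counts were filtered with filterByExpr, scaled by TMM and fitted in edgeR 4.0.16 (R 4.3.3) with the quasi-likelihood test over 8 groups, and the script was tested on simulated data. Alternatives were RLE size factors, no filter, a replicate block, the libraries of a line alone, DESeq2 1.42.0 and each library left out. The fold change cutoffs of the study's count of affected genes (log2 under -0.5 or over 1.5) were a further alternative. Members and lists were chosen with earlier results of these data known. Genes outside the set were named where called with the same sign in at least 3 lines or largest among those called in a line, with RBPJ, ATOH1, NOTCH4, DLL3, NOTCH2NLA, genes overlapping a member, and the 2 genes most like each member (log2 CPM with a prior count of 1). Further genes (ADAM10, ADAM17, NEUROG3, GFI1 and the called genes of the further targets) were named after their values were seen. Intervals on counts cover counting error only.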

Additional observations from a re-analysis of the deposited data

Results flagged for a closer look

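The effect of 3D growth differed between the 4 lines for 5 genes by edgeR's joint F test of the growth by line interaction. For NOTCH1 (adjusted p = 9.3e-04), the level fell in HT29, LS513 and LS174T while HCT116 stood at 0.17 on the log2 scale. For NOTCH3 (adjusted p = 3.1e-05), the rise of 1.34 was in HCT116. For DLL1 (adjusted p = 9.0e-05) and DLL4 (adjusted p = 6.9e-08), the rise was steepest in HT29, where the 2D levels were 0.0229 and 0.433 CPM, and DLL4 fell in LS513. For JAG1 (adjusted p = 2.0e-04), the log2 fold change was -1.56 in HT29, -0.78 in LS174T, -0.20 in LS513 and -0.16 in HCT116.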

How the results depend on the processing

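No called fold change of the 10 genes changed sign under the alternatives run. The sign changed in 13 of 435 refitted values, each of a fold change that was not called, in NOTCH2, NOTCH3, DLL4, HES1 and HEY1 (HES1 in LS513 from 0.03 to -0.21 and HEY1 in LS513 from 0.61 to -0.53), and 0 of the 13 were called. The number called in HCT116 went from 2 to 1 with no filter, with the replicate block and with the 6 libraries of the line alone. It went to 0 with the cutoffs of the study's count of affected genes, a log2 fold change under -0.5 or over 1.5. In LS174T the number called went from 5 to 3 with the 6 libraries alone and with those cutoffs. For its gene set analysis the study took over 1 as the upper cutoff, which NOTCH3 in HCT116 (1.34) would pass. With single libraries left out the counts ranged from 5 to 7 in HT29, 3 to 3 in LS513, 1 to 3 in HCT116 and 3 to 6 in LS174T, from 5 to 6 for the difference of the 3D effect, and from 10 to 10 for levels between lines. Of single-gene results, 220 of 240 kept their side of the threshold with a library left out, 39 of 40 with RLE size factors and 38 of 39 with DESeq2. With no filter, the other pathway genes that fell went from 3 to 6 in HCT116 and from 5 to 8 in LS174T. Levels moved beyond the replicate SD in 11 of 80 groups with plain library totals and in 49 of 80 groups per kilobase with the longest transcript. The shifts per kilobase came from dividing by another length. The cause of the other shifts was not tested.

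Deviations from the group mean correlated from -0.126 to 0.077 over 11 same-numbered pairs of a line, beside -0.203 to 0.198 over 25 other pairs. Deviations within a group cancel, so these values cannot decide whether replicate numbers mark shared cultures or batches. With the replicate block, calls over all genes went from 7887 to 5415 in HT29, 4571 to 3635 in LS513, 5637 to 4614 in HCT116 and 4305 to 3273 in LS174T. In HT29, 2D replicate 2 and 3D replicate 4 have no same-numbered partner, so its contrast in the block rested on replicates 1 and 3. Among the 10 genes, the block lost DLL1 in HCT116 (adjusted p = 0.071) and in LS174T (adjusted p = 0.063). DLL4 in HT29 moved from 3.65 to 4.34 with the block, beside 4.32 with 2D replicate 2 left out and no block. The block could not be fitted to levels between lines, since each block lies in a line. Depth limits HEY1 in all lines and DLL1 in HT29.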
